A study of Mus musculus with 10 samples.

Results

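The clustered protocadherins were examined in mouse fibroblasts cultured by themselves or together with ILC2s (group 2 innate lymphoid cells), lymphocytes without antigen receptors that secrete IL-5 and IL-13. Members were chosen by symbol, as every gene of the count table whose name starts with Pcdha, Pcdhb or Pcdhg. This gave 52 genes among the 22731 in the table: 9 of the alpha, 21 of the beta and 22 of the gamma cluster. The annotation lists 58 such genes, and Pcdha1, Pcdha6, Pcdha7, Pcdhac1, Pcdhb1 and the second of a pair of identifiers that carry the symbol Pcdha11 were not analysed here. The family was taken up because Pcdhgb6 and Pcdhgc5 had been seen to rise in coculture. Values of those 2 genes are therefore given as a description, and they enter no count of called members.

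Protocadherins of this kind are surface proteins of the cadherin superfamily. Each gene of a cluster has its own promoter and its own large first exon, which encodes the extracellular and membrane-spanning part, and in the alpha and gamma clusters that exon is spliced to constant exons shared by the whole cluster. Beta genes consist of a single exon and have no constant part. The family is best known from neurons, where the choice of promoters, guided by CTCF, cohesin and DNA methylation, gives each cell its own combination of isoforms, and where the proteins recognise their own kind on other membranes. The C-type members (Pcdhac1, Pcdhac2, Pcdhgc3, Pcdhgc4, Pcdhgc5) lie nearest to the constant exons and are chosen less randomly.

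Bulk RNA-seq libraries fell into 3 groups, all of fibroblasts with the genotype C57B6. There were 4 libraries of fibroblasts in monoculture, 3 from coculture with wild-type (WT) ILC2s and 3 from coculture with ILC2s that lack IL-13 (IL13KO). Starting fibroblasts were sorted as CD45-, Epcam-, CD31-, Pdpn+ and Pdgfra+, and ILC2s as CD45+, CD3-, B220-, Lineage- and KLRG1+. Fibroblasts were sorted again for RNA, with a gate that the design text gives as CD45+, Pdpn+ and Pdgfra+. Ages, culture times and the animal or culture behind each library are not given, so p-values measure the spread between these libraries, which may be technical. In the count table the WT cocultures carry the numbers 1, 3 and 4, and these numbers are used here. Total counts ran from 10710410 to 14366199 in the monocultures, from 18801744 to 22087459 in the WT and from 17277432 to 17661229 in the IL13KO cocultures. Il13 had 30, 120 and 121 reads in WT cocultures 1, 3 and 4 and 0 reads in every other library. Summed fibroblast markers (8 genes, among them Col1a1 and Pdgfra) stood at 6887 to 9682 CPM (read counts scaled to equal library depth) in the monocultures, 11178 to 15668 in the WT and 21820 to 27103 in the IL13KO cocultures.

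All members lie on chromosome 18 (GRCm38), on the forward strand, with the alpha cluster at 36930184 to 37187661, the beta cluster at 37264938 to 37524479 and the gamma cluster at 37661793 to 37841873. How far the reads of a member can be told from those of another was read from the annotation. In the alpha cluster a median of 53.5% of a member's exon bases also belong to another member, and in the gamma cluster 44.7% (range 27.8 to 66.8%). In the beta cluster the median is 0, and only Pcdhb21 and Pcdhb22 share any exon bases. A median of 44.4% of the windows of 50 bases, the length of 1 read, of a gamma member occur in another member as well, against 59.4% for alpha and 4.82% for beta. How reads in shared exons were given to members is not stated. Values of single alpha and gamma members are therefore uncertain. A sum over a cluster does not depend on how such reads were divided within it, but it does depend on whether they were kept. A median of 13.2% of the exon bases of a gamma member belongs to genes outside the family on the same strand, and in 21 of the 22 all of these bases are among those shared with other members. The exception is Pcdhgc5, where 11.8% of the exon bases are shared with such genes only.

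The 3 clusters differed in level and in how they stood between the groups. Summed over all members, the gamma cluster reached 11.6, 15.4, 19.4 and 17.9 CPM in monocultures 1 to 4, 151, 99.3 and 73.3 CPM in WT cocultures 1, 3 and 4, and 171, 194 and 159 CPM in IL13KO cocultures 1 to 3. Every coculture thus lay above every monoculture, and the ratio of means was 6.72 with WT and 10.9 with IL13KO ILC2s. Without Pcdhgb6 and Pcdhgc5 the sum was 11.5 to 17.3 CPM alone, 66.7 to 132 with WT and 134 to 161 with IL13KO ILC2s, with ratios of 6.29 and 9.75. Unlike the full sum, this one depends on how reads in shared exons were divided. Of the exon bases of Pcdhgb6 and Pcdhgc5, 45.2% and 27.8% also belong to other members. The beta cluster stood at 201, 189.7, 167 and 188 CPM alone, 104, 94.4 and 95.4 with WT and 193, 178 and 159.9 with IL13KO ILC2s. The WT cocultures lay below all other libraries here, at 0.525 times the monocultures, while the IL13KO cocultures, at 0.950 times, overlapped with the monocultures. The alpha cluster was close to the limit of detection, with 0.410 to 3.32 CPM over the 10 libraries and overlapping groups.

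**Figure D1:**
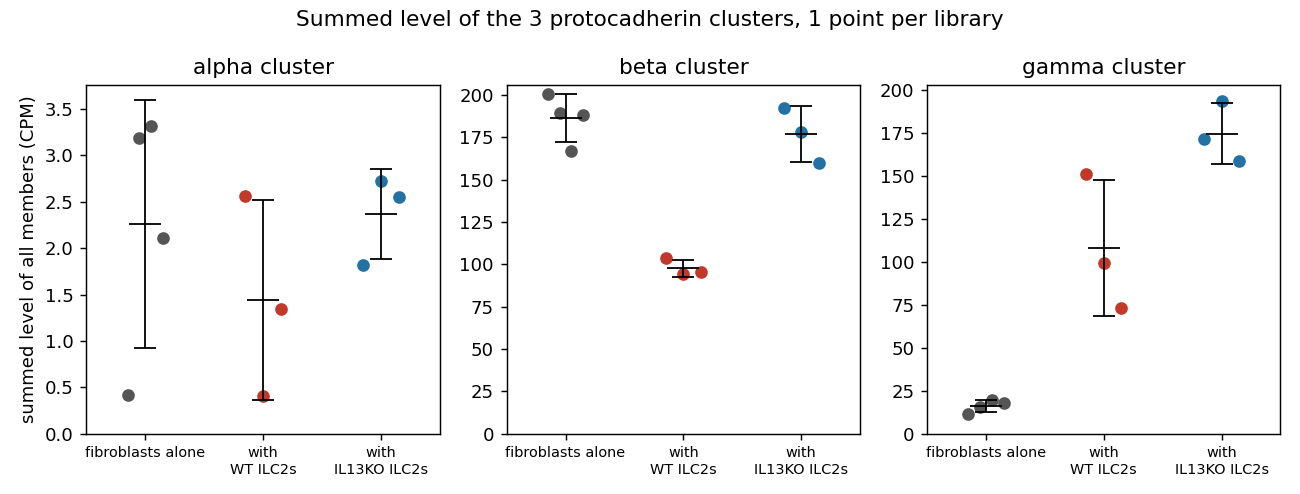
Summed level in CPM (y axis) of the alpha, beta and gamma clusters in each library, by culture (x axis); points are libraries, the long bar is the mean and the whiskers the SD (4, 3 and 3 libraries). The gamma sum is 11.6 to 19.4 CPM alone and 73.3 to 194 CPM in the cocultures, and the beta sum is lowest with WT ILC2s (94.4 to 104 CPM).

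The balance between the clusters changed with this. For each read of a beta gene there were 0.0577 to 0.116 reads of a gamma gene in the monocultures, 0.768 to 1.46 in the WT and 0.889 to 1.09 in the IL13KO cocultures. The gamma reads of a monoculture numbered 137 to 254 in all, spread over 14 to 19 of the 22 members, against 1361 to 3363 with WT and 2797 to 3407 with IL13KO ILC2s, where all 22 members had reads. In bulk samples a change in the number of cells that express a gene and a change in RNA per cell cannot be told apart. The gamma level differed among the WT cocultures more than in the other groups, with library 1 just below the IL13KO cocultures and library 4 lowest.

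Levels of different genes were compared as CPM per kilobase of exon. In monoculture the highest were Pcdhb9 (7.75 ± 1.22), Pcdhb17 (6.66 ± 1.03) and Pcdhb20 (6.33 ± 1.74, SD, n = 4), which did not differ beyond their spread. Pcdhb19 (3.54 ± 0.419) and Pcdhb7 (3.50 ± 0.631) followed, and the first gamma gene, Pcdhgc3, came at rank 14 (0.534 ± 0.246). With WT ILC2s Pcdhgc3 was first (6.30 ± 3.12, n = 3), ahead of Pcdhb17 (2.92 ± 0.125), and with IL13KO ILC2s it was again first (12.6 ± 0.916), ahead of Pcdhb9 (5.49 ± 0.280) and Pcdhb17 (5.34 ± 0.811).

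**Figure D2:**
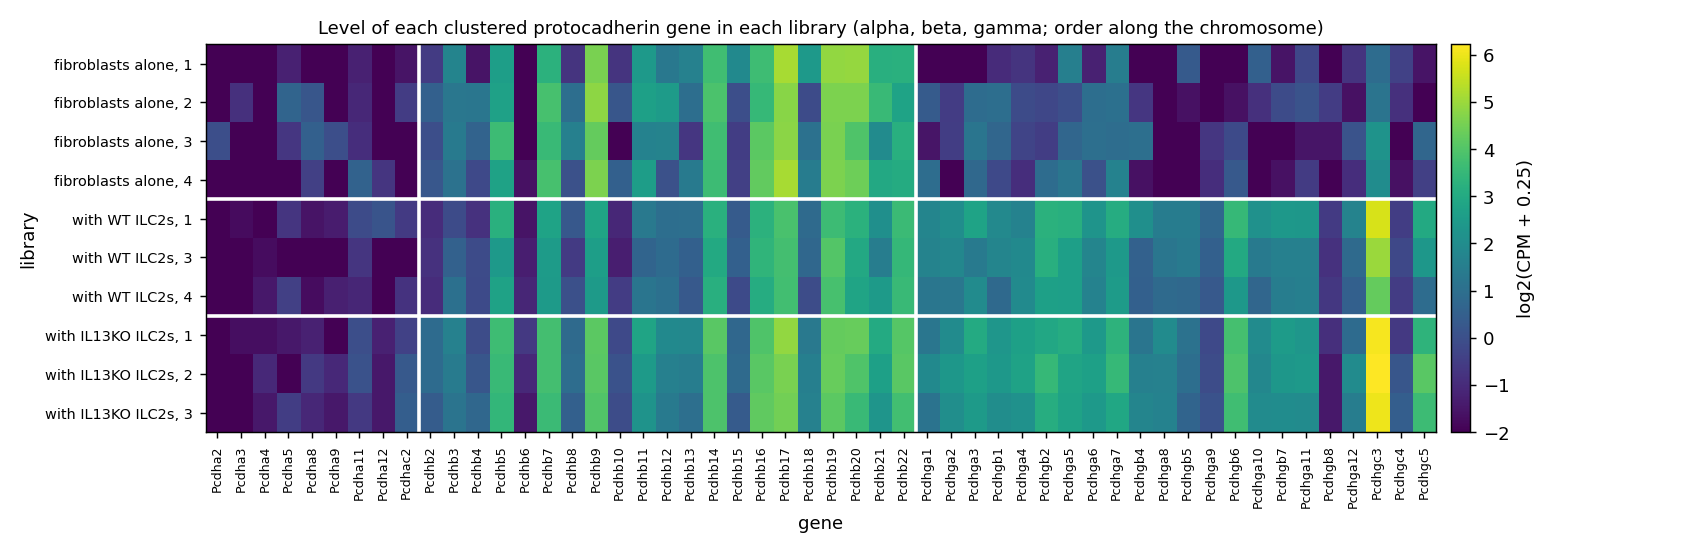
Level of each of the 52 members (columns, in order along the chromosome) in each of the 10 libraries (rows) as log2(CPM + 0.25), from dark (low) to yellow (high); white lines separate clusters and groups. The right-hand block of gamma genes is dark in the 4 monocultures and lighter in the 6 cocultures, with Pcdhgc3 the brightest column there.

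Tests were made with edgeR's quasi-likelihood model on all genes, and a gene was called where its p, adjusted by the method of Benjamini and Hochberg, was below 0.05. Of the 52 members, 42 passed the filter on low counts: 1 alpha (Pcdha11), 20 beta and 21 gamma genes. Most gamma genes passed through their cocultures. Genes that did so could hardly be called lower in coculture, so their calls and p-values only describe these values. The share of all genes called is no like comparison for them. Counts are therefore also given over all members, as groups that do not overlap. Coculture changed much of the transcriptome, and of the 16344 genes tested 32.8% were called higher and 29.7% lower with WT ILC2s than alone. With IL13KO ILC2s these shares were 30.1% and 27.2%.

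Gamma genes were higher in coculture. With WT ILC2s 18 of the 19 tested gamma genes (without the 2 that prompted the choice) were called higher and 0 lower, beside the 32.8% of all genes, and the median log2 fold change was 2.79, against 0.015 over all genes. With IL13KO ILC2s 19 of 19 were called higher, beside 30.1% of all genes, with a median of 2.60; both medians are the same with Pcdhga8, which has no monoculture reads, at its lower bound. Among the 20 gamma members other than those 2, whether tested or not, the WT cocultures lay entirely above the monocultures for 16 and the IL13KO cocultures for 18, where 32.2% and 30.9% of tested genes did so. Under a test against a fold change of 1.5, 14 of 19 gamma genes were called higher with WT and 15 of 19 with IL13KO ILC2s, beside 22.0% and 18.9% of all genes; 0 were lower. Both comparisons use the same 4 monocultures, so they are not independent of each other.

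**Figure D3:**
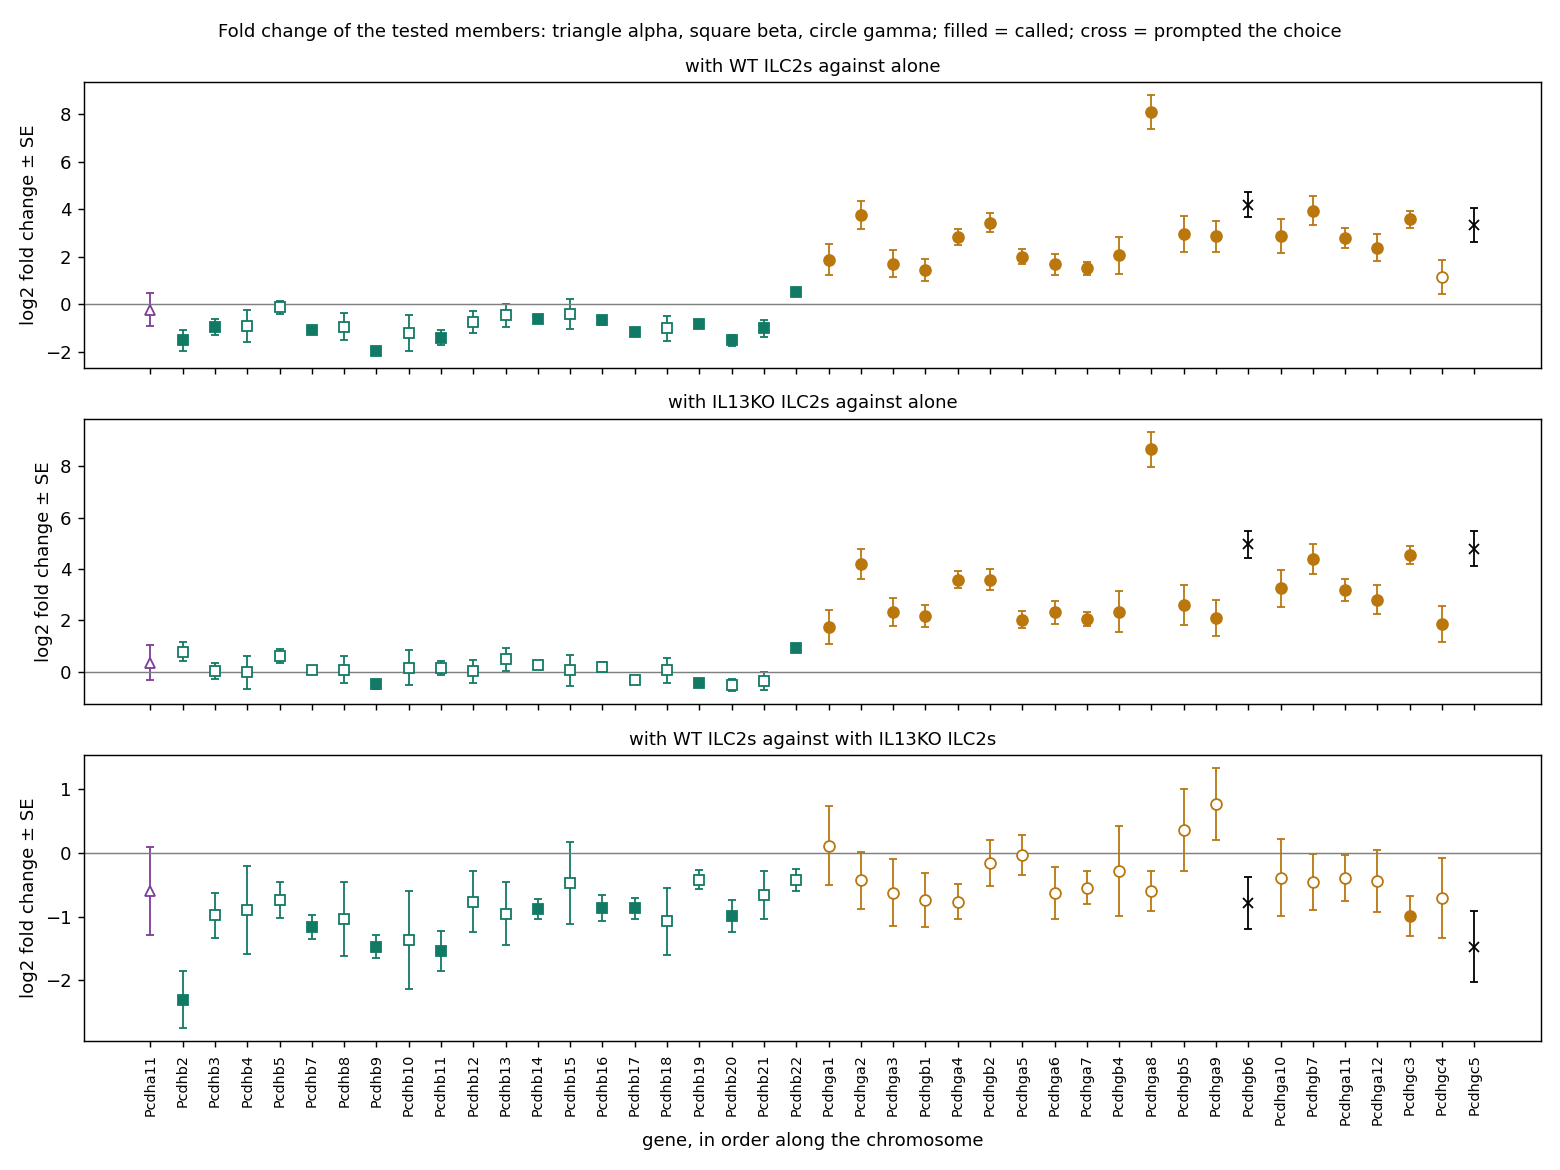
log2 fold change ± SE (y axes) of the 42 members that passed the filter, in order along the chromosome (x axis), in 3 panels for the 3 comparisons; triangles are alpha, squares beta and circles gamma genes, filled where called, and crosses mark Pcdhgb6 and Pcdhgc5, for which no call is given. The fitted value of Pcdhga8, at 0 reads in the monocultures, depends on the prior count. Gamma genes lie above 0 in both upper panels, and all 20 beta genes lie below 0 in the lowest panel.

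Among the C-type members Pcdhgc3 stood out by its level. It lies at 37806364 to 37841873 (ENSMUSG00000102918) and had 19, 27, 48 and 53 reads alone, 1186, 611 and 359 with WT and 1205, 1310 and 1137 with IL13KO ILC2s, or 2.94 ± 1.35, 34.6 ± 17.2 and 69.1 ± 5.04 CPM (SD, n = 4, 3 and 3). In CPM the 3 groups did not overlap. Its log2 fold change was 3.57 ± 0.35 with WT (edgeR adjusted p = 2.31e-06) and 4.56 ± 0.35 with IL13KO ILC2s (adjusted p = 9.18e-07). It took 17.6 ± 4.95% of all gamma reads alone, 31.1 ± 4.46% with WT and 39.7 ± 1.12% with IL13KO ILC2s. Of its exon bases 28.4% lie opposite the antisense gene BC037039, and the strand setting of the counting is not given, so reads of the 2 genes cannot be told apart there. BC037039 itself stood at 3.19 ± 1.31, 19.4 ± 9.81 and 41.1 ± 5.89 CPM in the 3 groups.

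Pcdhgc5 (ENSMUSG00000102543, 37819513 to 37841873), which helped prompt the choice, had 1, 0, 15 and 7 reads alone, 171, 94 and 30 with WT and 174, 304 and 215 with IL13KO ILC2s. In CPM its groups did not overlap, and the WT cocultures were spread widely, from 1.62 to 7.67 CPM. Pcdhgb6 (ENSMUSG00000103088, 37742094 to 37841873), the other such gene, had 0, 1, 7 and 14 reads alone, 250, 151 and 93 with WT and 242, 266 and 223 with IL13KO ILC2s, again without overlap in CPM (0.426 ± 0.471, 7.99 ± 3.11 and 13.8 ± 1.24 CPM on average). Reads of Pcdhgc5 are uncertain where 11.8% of its exon bases belong to genes outside the family on the same strand and to no other member.

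The remaining C-type members were low. Pcdhgc4 had 6, 4, 0 and 1 reads alone, 10, 12 and 8 with WT and 7, 16 and 20 with IL13KO ILC2s, with overlapping groups. It was not called with WT ILC2s (log2 fold change 1.16 ± 0.72, edgeR adjusted p = 0.176) and was called with IL13KO ILC2s (1.86 ± 0.69, adjusted p = 0.0344). The latter call ended without monoculture 3 or 4, any 1 of the WT cocultures, or IL13KO coculture 2 or 3 (log2 fold change 1.503 to 1.87, adjusted p = 0.0525 to 0.142), and without monoculture 1 the fold change was 2.59. Pcdhac2, the C-type gene of the alpha cluster that is in the table, had 1, 6, 0 and 0 reads alone, 9, 0 and 6 with WT and 9, 17 and 20 with IL13KO ILC2s and was too low to be tested, although its IL13KO cocultures lay above all other libraries.

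Among the gamma A genes, Pcdhga8 gave the widest contrast. It had 0 reads in each of the 4 monocultures, 55, 41 and 29 in the WT and 64, 49 and 51 in the IL13KO cocultures. Set against a floor of 3 counts over all monocultures, its level was at least 34.4-fold higher with WT and at least 52.1-fold higher with IL13KO ILC2s. Both were called, but the gene had no monoculture reads and passed the filter on low counts through its cocultures alone, so no p is given. Of its exon bases 8.80% lie opposite a gene of the other strand, and its reads are uncertain to that extent.

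Pcdhga2 had 0, 0.444, 0.461 and 0 CPM alone, 3.81, 3.28 and 2.16 with WT and 3.63, 4.89 and 3.97 with IL13KO ILC2s. Pcdhga4 had 0.338, 0.667, 0.553 and 0.281 CPM alone, 2.87, 3.48 and 3.56 with WT and 6.18, 6.42 and 4.20 with IL13KO ILC2s. Pcdhga11 had 0.591, 0.815, 0.0922 and 0.422 CPM alone, 4.85, 2.77 and 2.69 with WT and 4.76, 5.17 and 3.63 with IL13KO ILC2s. All 3 were higher in each coculture than in each monoculture, with log2 fold changes of 3.77 ± 0.59, 2.83 ± 0.32 and 2.79 ± 0.42 with WT and 4.20 ± 0.58, 3.59 ± 0.32 and 3.18 ± 0.42 with IL13KO ILC2s (edgeR adjusted p from 0.000116 down to 2.19e-06). Without monoculture 2 the changes of Pcdhga2 were 4.42 and 4.85.

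Some gamma genes overlap transcripts of the other strand and are uncertain to that extent. Pcdhga10 had 1.18, 0.296, 0 and 0 CPM alone, 4.26, 2.31 and 1.40 with WT and 3.63, 3.24 and 3.63 with IL13KO ILC2s. It was called in both comparisons (2.86 ± 0.73 and 3.25 ± 0.72, edgeR adjusted p = 0.00405 and 0.00193), with groups that did not overlap, but 99.0% of its 50-base windows occur in another gene, and 55.2% of its exon bases lie opposite another gene, such as Gm26672. Without monoculture 1, which held most of its monoculture reads, its fold changes were 4.59 and 4.98. Pcdhga11 and Pcdhgb7 share 29.0% and 16.4% of their exon bases with genes of the opposite strand.

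Pcdhga5 and Pcdhga7 led the gamma A genes in reads. Pcdhga5 had 2.703, 0.741, 1.38 and 2.11 CPM alone, 8.80, 5.94 and 5.98 with WT and 8.22, 6.65 and 6.41 with IL13KO ILC2s. Pcdhga7 had 2.53, 1.78, 1.66 and 2.88 CPM alone, 8.35, 5.23 and 5.50 with WT and 9.70, 11.1 and 7.14 with IL13KO ILC2s. In both, all cocultures lay above all monocultures and the cocultures overlapped with each other. Their changes were smaller than that of Pcdhgc3, at 1.995 ± 0.33 and 1.51 ± 0.27 on the log2 scale with WT and 2.03 ± 0.33 and 2.06 ± 0.27 with IL13KO ILC2s (edgeR adjusted p at most 0.000294).

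Of the remaining gamma A genes, Pcdhga3 had 0, 1.63, 2.03 and 1.48 CPM alone, 6.51, 2.36 and 3.66 with WT and 7.94, 6.08 and 5.39 with IL13KO ILC2s. Pcdhga6 had 0.169, 1.70, 1.75 and 0.773 CPM alone, 4.53, 3.07 and 2.91 with WT and 5.16, 6.14 and 5.05 with IL13KO ILC2s. Pcdhga12 had 0.338, 0.0741, 0.830 and 0.281 CPM alone, 2.96, 1.54 and 1.19 with WT and 1.59, 3.64 and 2.55 with IL13KO ILC2s. Each was called in both comparisons, with all cocultures above all monocultures and log2 fold changes of 1.68 to 2.81 (edgeR adjusted p = 0.000588 to 0.0177). Without monoculture 3 the changes of Pcdhga12 were 3.02 and 3.46, and without WT coculture 1 that of Pcdhga3 with WT ILC2s was 1.23 and no longer called (adjusted p = 0.117).

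Pcdhga1 had 0, 1.04, 0.0922 and 1.69 CPM alone, 3.10, 2.97 and 2.10 with WT and 2.10, 3.52 and 1.93 with IL13KO ILC2s. Pcdhga9 had 0, 0, 0.369 and 0.281 CPM alone, 1.44, 1.18 and 0.970 with WT and 0.624, 0.682 and 0.794 with IL13KO ILC2s. Both were called in both comparisons (1.86 ± 0.65 and 2.85 ± 0.66 with WT, 1.75 ± 0.66 and 2.08 ± 0.70 with IL13KO ILC2s), with edgeR adjusted p of 0.00221 to 0.0369 and no overlap with the monocultures. Pcdhga9 was also the tested gamma gene with the highest level in WT relative to IL13KO cocultures, which did not pass the test (0.77 ± 0.56, adjusted p = 0.359). The calls of Pcdhga1 ended with WT ILC2s without WT coculture 1 or 3 (1.77 and 1.80, adjusted p = 0.0715 and 0.0648), and with IL13KO ILC2s without monoculture 3, WT coculture 1 or 3 or any 1 of the IL13KO cocultures (1.41 to 1.92, adjusted p = 0.0534 to 0.142). Without monoculture 4 its changes were 2.73 and 2.61. The call of Pcdhga9 with IL13KO ILC2s ended without IL13KO coculture 2 or 3 (2.11 and 1.99, adjusted p = 0.0556 and 0.0699), and without monoculture 3 its changes were 3.48 and 2.71.

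In the gamma B subfamily, Pcdhgb2 had 0.169, 0.592, 0.461 and 1.62 CPM alone, 9.20, 8.81 and 6.20 with WT and 7.37, 11.2 and 8.45 with IL13KO ILC2s. Pcdhgb7 had 0.0845, 0.667, 0 and 0.0703 CPM alone, 4.94, 2.77 and 2.53 with WT and 5.50, 4.89 and 3.74 with IL13KO ILC2s. Pcdhgb5 had 1.01, 0.0741, 0 and 0 CPM alone, 2.47, 2.36 and 1.46 with WT and 1.87, 1.71 and 1.30 with IL13KO ILC2s. All cocultures lay above all monocultures in these 3 genes. Pcdhgb2 changed by 3.44 ± 0.42 with WT and 3.59 ± 0.42 with IL13KO ILC2s, Pcdhgb7 by 3.94 ± 0.59 and 4.40 ± 0.58, and Pcdhgb5 by 2.97 ± 0.76 and 2.60 ± 0.78 (log2 fold change, edgeR adjusted p at most 0.0123). These 3 genes passed the filter through their cocultures, so the p-values only describe the values. The size of each change rested on 1 monoculture. Without monoculture 4 the changes of Pcdhgb2 were 4.26 and 4.42, without monoculture 2 those of Pcdhgb7 were 5.80 and 6.26, and without monoculture 1, which held 12 of the 13 monoculture reads, those of Pcdhgb5 were 5.98 and 5.61.

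Pcdhgb1 and Pcdhgb4 were called with WT ILC2s although WT and monocultures overlapped. Pcdhgb1 had 0.253, 1.70, 1.38 and 0.633 CPM alone, 3.41, 3.13 and 1.51 with WT and 4.71, 4.94 and 3.86 with IL13KO ILC2s. Pcdhgb4 had 0, 0.370, 1.75 and 0.0703 CPM alone, 3.99, 1.23 and 1.19 with WT and 2.04, 2.73 and 3.12 with IL13KO ILC2s. The IL13KO cocultures lay above the monocultures in both. Their log2 fold changes were 1.43 ± 0.45 and 2.06 ± 0.79 with WT (edgeR adjusted p = 0.0145 and 0.0371) and 2.17 ± 0.44 and 2.34 ± 0.79 with IL13KO ILC2s (adjusted p = 0.00110 and 0.0221). The WT call of Pcdhgb1 ended without WT coculture 1 or 3 (1.23 and 1.31, adjusted p = 0.0657 and 0.0514). That of Pcdhgb4 ended without monoculture 1, 2 or 4, WT coculture 1, or IL13KO coculture 2 or 3 (1.22 to 2.06, adjusted p = 0.0523 to 0.260), and its IL13KO call without monoculture 4 or IL13KO coculture 2 or 3 (1.94 to 2.31, adjusted p = 0.0532 to 0.0657). Without monoculture 3, which held most of its monoculture reads, the changes of Pcdhgb4 were 3.77 and 4.05. Pcdhgb8, the gamma member too low for the test, had at most 9 reads in a library, and its monocultures overlapped with both cocultures.

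The low gamma genes thus carried wide errors. The median biological coefficient of variation, the spread between libraries beyond counting noise, was 0.326 for gamma, 0.237 for beta and 0.168 for all genes.

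GC content moved with this result. Gamma transcripts have a median GC content of 53.0%, against 45.6% for beta transcripts and 49.6% for all genes tested. With each library's trend over GC content and exon length removed, all 19 gamma genes still had fold changes above 0, but the medians were 1.89 with WT and 1.67 with IL13KO ILC2s, and 13 and 14 of 19 were called, beside 25.0% and 18.9% of all genes. The median over all genes moved to -0.14 and -0.16 under this correction, and to -0.11 and -0.10 under upper-quartile scaling, where the gamma medians were 2.67 and 2.49. After removal of the GC and length trend Pcdhgc3 changed by 2.38 and 3.24 and was still called. With the same trend removed, Pcdhga1, Pcdhgb4 and Pcdhgb5 were no longer called in either comparison. Pcdhga3 and Pcdhgb1 were then not called with WT, and Pcdhga9 and Pcdhgc4 not with IL13KO ILC2s (log2 fold changes 0.50 to 1.89).

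**Figure D4:**
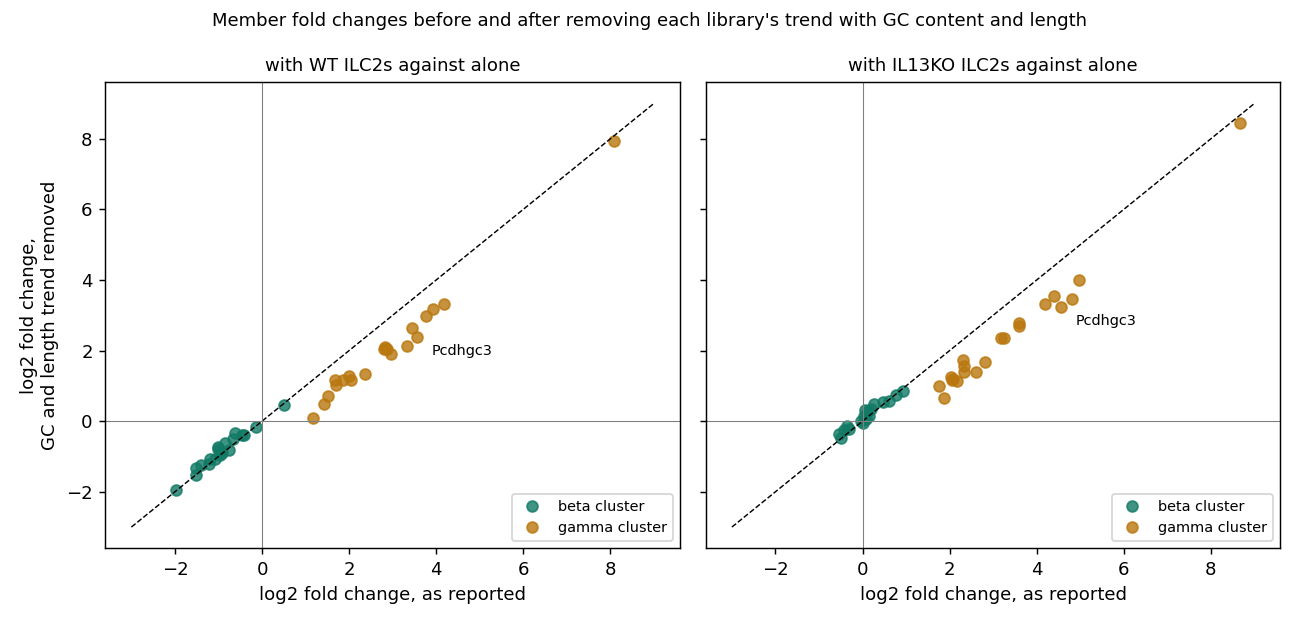
log2 fold change of each beta and gamma gene that passed the filter after removal of each library's GC and length trend (y axis) against the value as reported (x axis), with WT ILC2s (left) and IL13KO ILC2s (right); the dashed line marks equality. Gamma genes stay above 0 but fall below the line (median without Pcdhgb6 and Pcdhgc5: 2.79 before and 1.89 after removal with WT ILC2s), while beta genes lie near it (-0.96 and -0.83).

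Beta genes showed another pattern: most were lower with WT ILC2s and few differed with IL13KO ILC2s. With WT ILC2s 11 of 20 tested beta genes were called lower and 1 higher, beside 29.7% and 32.8% of all genes, and the median log2 fold change was -0.96. With IL13KO ILC2s 2 were called lower and 1 higher, beside 27.2% and 30.1% of all genes, with a median of 0.06, which was -0.05 under upper-quartile scaling. Over all 21 beta members the WT cocultures lay entirely below the monocultures for 10 and above for 2, where 28.7% and 32.2% of tested genes did so. For the IL13KO cocultures these counts were 2 and 3, where 28.3% and 30.9% did so. Against a fold change of 1.5, 7 of 20 were called lower with WT (13.9% of all genes) and 0 with IL13KO ILC2s (6.98%).

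Pcdhb9 (ENSMUSG00000051242, 37400855 to 37403909), the first of the beta genes by level per kilobase in monoculture, had 23.6, 28.1, 19.0 and 24.0 CPM alone, 6.96, 5.79 and 5.39 with WT and 17.5, 17.1 and 15.8 with IL13KO ILC2s. The 3 groups did not overlap, with the WT cocultures lowest. Its log2 fold change was -1.97 ± 0.17 with WT (edgeR adjusted p = 7.99e-07) and -0.50 ± 0.16 with IL13KO ILC2s (adjusted p = 0.0164). The latter call ended without IL13KO coculture 2 (-0.50, adjusted p = 0.0518) or 3 (-0.45, 0.0705).

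Pcdhb17 had 35.6, 26.7, 27.2 and 34.8 CPM alone, 14.3, 13.4 and 13.2 with WT and 29.2, 23.3 and 22.2 with IL13KO ILC2s. Pcdhb20 had 30.1, 23.8, 15.2 and 20.95 CPM alone, 9.24, 7.48 and 6.68 with WT and 19.5, 15.4 and 11.7 with IL13KO ILC2s. Both were lower in every WT coculture than in any other library, with log2 fold changes of -1.19 ± 0.15 and -1.53 ± 0.24 against monoculture (edgeR adjusted p = 2.44e-05 and 0.000133), while the IL13KO cocultures overlapped with the monocultures and were not called (-0.32 ± 0.15 and -0.54 ± 0.23). Pcdhb19 had 29.7, 24.1, 23.2 and 24.0 CPM alone, 12.1, 16.0 and 14.1 with WT and 19.1, 19.5 and 17.6 with IL13KO ILC2s, with the 3 groups apart and the monocultures highest. It was called lower with WT (-0.85 ± 0.14, adjusted p = 0.000227) and, less far, with IL13KO ILC2s (-0.43 ± 0.14, adjusted p = 0.0202), a call that ended without any 1 of the IL13KO cocultures (-0.45 to -0.38, adjusted p = 0.0503 to 0.0838) and after removal of the GC and length trend (-0.26, 0.122).

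Pcdhb7 had 9.46, 14.0, 11.5 and 14.1 CPM alone, 6.51, 5.43 and 5.39 with WT and 13.4, 13.2 and 12.02 with IL13KO ILC2s. Pcdhb11 had 5.24, 6.07, 2.86 and 5.69 CPM alone, 2.24, 1.33 and 2.05 with WT and 6.69, 5.29 and 4.42 with IL13KO ILC2s. Pcdhb2, a much lower gene, had 0.422, 1.18, 0.738 and 0.914 CPM alone, 0.269, 0.307 and 0.269 with WT and 1.59, 1.59 and 1.08 with IL13KO ILC2s. In all 3 the WT cocultures lay below every other library and the remaining groups overlapped. Against monoculture they changed by -1.09 ± 0.18, -1.41 ± 0.30 and -1.52 ± 0.45 with WT (edgeR adjusted p = 0.000183, 0.00123 and 0.0103).

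Pcdhb14 had 12.8, 14.7, 12.6 and 12.3 CPM alone, 8.97, 7.79 and 8.78 with WT and 17.1, 15.1 and 14.9 with IL13KO ILC2s. Pcdhb16 had 12.5, 11.04, 17.4 and 18.6 CPM alone, 9.51, 10.1 and 8.30 with WT and 15.4, 17.1 and 18.5 with IL13KO ILC2s. In both the WT cocultures lay below every other library. With WT ILC2s they were lower by smaller amounts, -0.62 ± 0.14 and -0.67 ± 0.20 (edgeR adjusted p = 0.00225 and 0.00889). The call of Pcdhb14 ended after removal of the GC and length trend (-0.34, adjusted p = 0.0581).

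Pcdhb3 and Pcdhb21 were called lower with WT ILC2s, but these calls ended without single libraries. Pcdhb3 had 3.04, 2.15, 2.40 and 1.90 CPM alone, 0.673, 1.23 and 1.78 with WT and 2.78, 2.44 and 1.98 with IL13KO ILC2s. Its WT cocultures lay below the monocultures (-0.95 ± 0.34, edgeR adjusted p = 0.0265), but it was no longer called without monoculture 1 or WT coculture 1 or 3 (-0.82, -0.64 and -0.97, adjusted p = 0.0604, 0.120 and 0.0631). Pcdhb21 had 8.95, 11.7, 3.69 and 7.59 CPM alone, 4.04, 2.56 and 5.28 with WT and 7.94, 6.20 and 4.65 with IL13KO ILC2s. Its groups overlapped (-1.02 ± 0.35, adjusted p = 0.0236), and the call ended without monoculture 2 or WT coculture 1 or 3 (-0.78, -1.02 and -0.79, adjusted p = 0.0717, 0.0654 and 0.104) and after removal of the GC and length trend (-0.78, 0.0549).

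Pcdhb22, the last beta gene before the gamma cluster, was the only beta gene called higher. It had 9.12, 6.59, 8.94 and 8.16 CPM alone, 11.98, 10.96 and 11.7 with WT and 16.3, 17.3 and 12.9 with IL13KO ILC2s, with the 3 groups apart and the IL13KO cocultures highest. Its log2 fold change was 0.50 ± 0.17 with WT (edgeR adjusted p = 0.0199) and 0.92 ± 0.17 with IL13KO ILC2s (adjusted p = 0.000444). The WT call ended without monoculture 2 (0.40, adjusted p = 0.0523) or WT coculture 1 (0.48, 0.0559) and with upper-quartile scaling (0.37, 0.0702). Pcdhb12, which was not called, shares 63.5% of its exon bases with the antisense gene Gm37446 and is uncertain. The other 7 tested beta genes that were not called with WT ILC2s had log2 fold changes of -1.22 to -0.14. Pcdhb6 was too low to be tested, with at most 7 reads in a library, although both cocultures lay above the monocultures.

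The WT and IL13KO cocultures were compared with each other to ask what depends on IL-13 from the ILC2s. They also differed in reads of ILC2 genes: Il5, which encodes another cytokine of these cells, had 80, 265 and 371 reads with WT and 30, 64 and 12 with IL13KO ILC2s, and leukocyte markers summed to 109 to 141 against 26.1 to 33.9 CPM. The part of this difference in the results between the cocultures was not tested. Of all genes, 11.7% were called higher and 11.7% lower with WT than with IL13KO ILC2s. Of the 20 tested beta genes 8 were called lower and 0 higher, and all 20 fold changes were below 0 (median -0.92, against -0.0042 over all genes). For 18 of the 21 beta members every WT coculture lay below every IL13KO coculture, where 24.8% of tested genes did so. Under the test against a fold change of 1.5, 4 of 20 were called lower and 0 higher, beside 3.49% and 3.27% of all genes.

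The 8 genes were Pcdhb2 (-2.30 ± 0.45), Pcdhb11 (-1.54 ± 0.31), Pcdhb9 (-1.47 ± 0.17), Pcdhb7 (-1.15 ± 0.19), Pcdhb20 (-0.99 ± 0.25), Pcdhb14 (-0.88 ± 0.15), Pcdhb17 (-0.87 ± 0.16) and Pcdhb16 (-0.86 ± 0.20, log2 fold change ± SE). Their edgeR adjusted p ran from 7.45e-05 for Pcdhb9 to 0.0132 for Pcdhb20. The call of Pcdhb20 ended without WT coculture 3 or 4 or IL13KO coculture 1 (-0.94, -0.89 and -0.79, adjusted p = 0.0594, 0.0630 and 0.0730). A fit of only the 6 cocultures, which sets the monocultures aside, called 17 of the 20 lower, beside 18.3% of all genes (18.1% were called higher).

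Fewer gamma genes were called between the cocultures. Of 19 tested, 1 was called lower with WT than with IL13KO ILC2s and 0 higher, beside 11.7% each of all genes. The median log2 fold change was -0.44, against -0.92 for beta genes. Gamma genes also had a wider spread between libraries than beta genes (median biological coefficient of variation 0.326 against 0.237). The part of either in the count of calls was not tested. The called gene was Pcdhgc3 (-0.99 ± 0.32, edgeR adjusted p = 0.0371), and this call was not firm. It ended in the fit of the 6 cocultures alone (adjusted p = 0.0699), and without WT coculture 3 or 4 or any 1 of the IL13KO cocultures (-1.04 to -0.70, adjusted p = 0.0760 to 0.141). Among the 20 gamma members without Pcdhgb6 and Pcdhgc5 the WT cocultures lay entirely below the IL13KO cocultures for 5 and above for 2 (Pcdhga9 and Pcdhgb8), close to the 24.8% of tested genes that did so for lower and under the 24.2% for higher. The summed gamma level with WT ILC2s was 0.618 times that with IL13KO ILC2s (0.645 without these 2 genes), and the summed beta level 0.553 times. Whether the clusters differ in this was not tested.

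Alpha genes gave too few reads for most comparisons. Pcdha11 was the alpha gene that passed the filter, with 2, 3, 3 and 18 reads alone, 15, 7 and 4 with WT and 13, 14 and 7 with IL13KO ILC2s. Its groups overlapped and it was not called in any comparison (log2 fold changes -0.24 ± 0.69 with WT, 0.36 ± 0.67 with IL13KO ILC2s and -0.60 ± 0.69 between them, edgeR adjusted p = 0.584 to 0.779). The other 8 alpha genes had 0 to 20 reads in a library. Of all 9, the IL13KO cocultures lay above the monocultures for Pcdha4 and Pcdhac2, where 30.9% of tested genes did so. The WT lay below the IL13KO cocultures for Pcdha8 and Pcdhac2, where 24.8% of tested genes did so.

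Genes that mark other cells had reads in every group. Of 10 leukocyte markers, Ptprc, Laptm5, Rac2 and Cd48 were at 0 in every monoculture, and the CD45 gene Ptprc had at most 9 reads in any coculture. The summed list stood at 10.6 to 19.0 CPM alone, 109 to 141 with WT and 26.1 to 33.9 with IL13KO ILC2s, most of it from Cd53. The list was highest in the WT cocultures, where the gamma sum was 73.3 to 151 CPM. Of 7 neuron markers 4 were in the table, with summed levels of 36.0 to 66.7, 138 to 167 and 111 to 126 CPM, almost all from Tubb3, and Elavl4 and Stmn2 were at 0 in the monocultures and at 0.0299 and 4.52 CPM on average with WT and 0.132 and 0.889 CPM with IL13KO ILC2s. Of 7 Schwann and glial markers 3 were in the table, with at most 2.21 CPM in any library. The ILC2 list (8 genes, with Thy1, which fibroblasts express too) stood at 171 to 233, 419 to 455 and 299.9 to 337 CPM, with Il7r, Klrg1 and Il5 at 0 in the monocultures, and the macrophage list (5 genes) at 68.1 to 74.7, 22.1 to 23.9 and 42.5 to 48.8 CPM. Endothelial markers (3 of 4 in the table) and epithelial markers (4 of 5) summed to at most 3.69 and 3.33 CPM in a library. The summed fibroblast markers given above were lowest alone and highest with IL13KO ILC2s. The part of these cells in the levels of the protocadherins was not tested.

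Genes around and between the clusters were examined next. Of 44 other annotated genes with reads within the span of the clusters or up to 500 kb beyond, 35 were tested, of which 14 were called higher and 9 lower with WT ILC2s (median log2 fold change -0.04), against 11 and 9 with IL13KO ILC2s (0.11). These counts were near the shares of all genes called higher and lower, 32.8% and 29.7% with WT and 30.1% and 27.2% with IL13KO ILC2s. Within the span, antisense or noncoding genes that share exon bases with gamma members were called higher, namely Gm26672 (3.33 ± 0.40 with WT, 3.91 ± 0.39 with IL13KO ILC2s), BC037039 (2.61 ± 0.36 and 3.69 ± 0.36) and Gm37165 (1.28 ± 0.41 and 2.06 ± 0.39), and Gm37118 with IL13KO ILC2s (2.14 ± 0.73). Between the beta and gamma clusters lies Taf7, which encodes a subunit of the general transcription factor TFIID. It shares no exon bases with members and was lower in both cocultures (-0.80 ± 0.17 and -0.83 ± 0.17). The noncoding gene 3222401L13Rik beside it was lower with WT (-0.80 ± 0.26), the pseudogene Gm8242 lower with IL13KO ILC2s (-0.97 ± 0.30), and Gm37446, antisense in the beta cluster, lower with WT ILC2s (-1.002 ± 0.35).

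Beyond the gamma cluster, Diaph1, which encodes a formin and lies past the constant exons on the opposite strand, was higher by 0.41 ± 0.17 with WT and 0.63 ± 0.17 with IL13KO ILC2s. Larger changes lay farther on, at Rell2 (2.43 ± 0.72 and 3.81 ± 0.66), Fchsd1 (3.67 ± 0.52 and 4.27 ± 0.51), Dele1 (1.45 ± 0.18 and 1.40 ± 0.18) and Pcdh1 (2.47 ± 0.33 and 3.29 ± 0.33), a protocadherin outside the clusters. Hdac3 (0.24 ± 0.10) and 1700086O06Rik (0.72 ± 0.29) were higher with WT ILC2s. Gnpda1 (-1.39 ± 0.11 and -0.54 ± 0.10) and Gm10268 (-0.70 ± 0.21 and -1.05 ± 0.21) were lower in both cocultures, and Rnf14 (-0.25 ± 0.10) with WT. On the far side of the alpha cluster, Slc35a4 (1.15 ± 0.23 and 1.06 ± 0.23) was higher in both, Hars (0.64 ± 0.09), Wdr55 (0.62 ± 0.14) and Dnd1 (1.22 ± 0.50) with WT and Apbb3 (0.87 ± 0.31) with IL13KO ILC2s. Ndufa2 (-0.68 ± 0.10 and -0.88 ± 0.10), Sra1 (-0.31 ± 0.09 and -0.57 ± 0.09) and Zmat2 (-0.31 ± 0.11 and -0.37 ± 0.11) were lower in both, and Ik (-0.38 ± 0.14) and Hars2 (-0.31 ± 0.12) with IL13KO ILC2s. Between the cocultures Gnpda1, Gm37446, BC037039 and Arap3 were lower with WT ILC2s (-0.85 ± 0.11, -1.10 ± 0.36, -1.08 ± 0.34 and -2.05 ± 0.70), and Hars and Wdr55 higher (0.52 ± 0.10 and 0.57 ± 0.15).

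**Figure D5:**
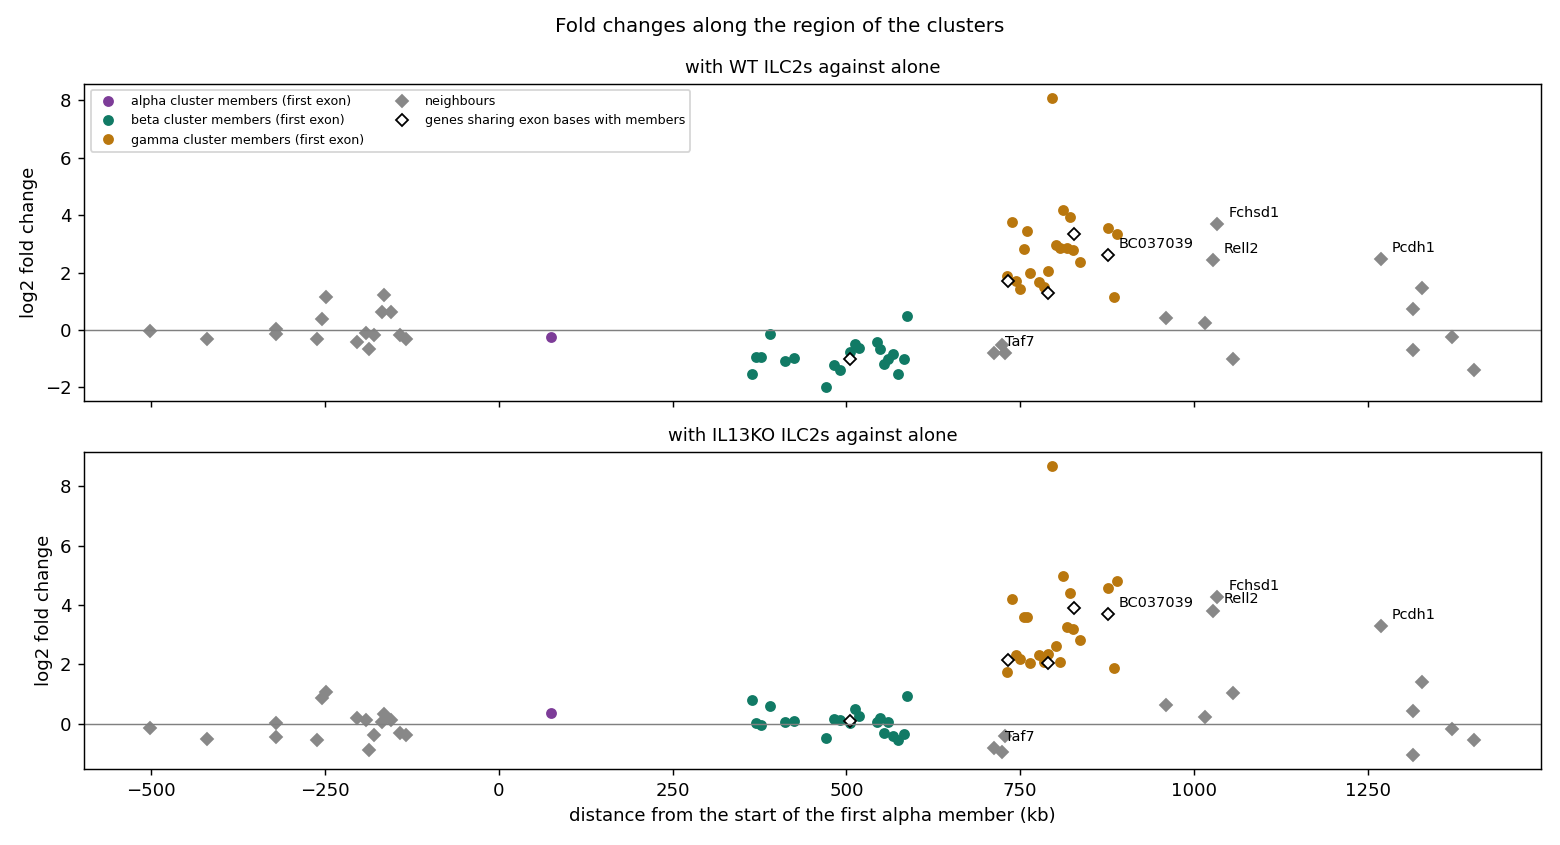
log2 fold change (y axis) of members and of their neighbours against the distance in kb from the start of the first alpha gene (x axis), with WT ILC2s (top) and IL13KO ILC2s (bottom); coloured circles are members, grey diamonds neighbours and open diamonds genes that share exon bases with members. Gamma genes and the open diamonds among them lie above 0, beta genes with WT ILC2s lie mostly below, and Fchsd1, Rell2 and Pcdh1 farther on lie above.

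Protocadherins and related genes outside the clusters moved in both directions. Of 11 tested, 4 were called higher and 4 lower with WT ILC2s, against 4 and 2 with IL13KO ILC2s, with median log2 fold changes of 0.45 and 0.98. Of all genes, 32.8% were called higher and 29.7% lower with WT, and 30.1% and 27.2% with IL13KO ILC2s. Pcdh7 fell from 118 ± 6.73 CPM alone to 38.3 ± 4.48 with WT and 43.9 ± 1.41 with IL13KO ILC2s, and Pcdh19 from 110.0 ± 19.0 to 36.6 ± 7.55 and 51.1 ± 0.316 CPM. Pcdh1 rose from 2.63 ± 1.16 to 14.4 ± 6.30 and 25.6 ± 2.64 CPM, and Pcdh9 was higher as well with IL13KO ILC2s (30.6 ± 2.95 against 15.6 ± 2.95 CPM). Pcdh18 and Pcdh11x were lower with WT than with IL13KO ILC2s (-2.36 ± 0.36 and -0.81 ± 0.22), as was Pcdh19 (-0.48 ± 0.16). Of 4 tested classical cadherins, 2 rose and 1 fell with WT ILC2s and 2 rose with IL13KO ILC2s (medians 1.13 and 1.22), beside the same shares of all genes. Cdh2, which encodes N-cadherin, went from 9.42 ± 3.27 CPM to 37.8 ± 4.28 with WT and 19.1 ± 1.94 with IL13KO ILC2s, and Cdh3 from 1.31 ± 2.02 to 7.10 ± 0.130 and 4.65 ± 0.484. Cdh11, the cadherin of mesenchymal cells, fell from 252 ± 23.6 to 160.1 ± 8.89 CPM with WT ILC2s and was lower there than with IL13KO ILC2s (-0.51 ± 0.10), whereas Cdh2 was higher (0.99 ± 0.23).

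Genes of the machinery known to act on the cluster promoters were also called in both directions. Of 15 genes for CTCF, cohesin, its loaders and its releasers, 6 were called higher and 4 lower with WT ILC2s, against 4 and 4 with IL13KO ILC2s (medians 0.14 and -0.18). These counts were near the shares of all genes, 32.8% higher and 29.7% lower with WT and 30.1% and 27.2% with IL13KO ILC2s. Ctcf itself fell from 34.7 ± 4.32 CPM to 16.9 ± 2.22 with WT and 18.3 ± 2.30 with IL13KO ILC2s. The cohesin subunit gene Rad21 rose from 46.9 ± 4.71 to 112 ± 6.67 and 73.6 ± 1.80 CPM, and Pds5b, a cohesin regulator, from 17.2 ± 1.06 to 35.9 ± 0.929 and 30.9 ± 3.69 CPM. Mau2, which encodes part of the cohesin loader, was higher with IL13KO ILC2s (0.96 ± 0.14). Cdca5, the gene of sororin, which keeps sister chromatids together after replication, was higher with WT ILC2s (2.13 ± 0.21). Cdca5, Rad21, Smc1a and Smc3 were also higher with WT than with IL13KO ILC2s (1.47 ± 0.22, 0.60 ± 0.10, 0.71 ± 0.16 and 0.60 ± 0.15), with 5 of the 15 called higher and 0 lower, beside 11.7% of all genes each way.

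Of 19 genes of DNA methylation and silencing, 10 were called higher and 2 lower with WT ILC2s, against 10 and 1 with IL13KO ILC2s (medians 0.25 and 0.47). Of all genes, 32.8% were called higher and 29.7% lower with WT, and 30.1% and 27.2% with IL13KO ILC2s. Among the named genes of this list the largest rises were those of Uhrf1 and Dnmt1, whose products act together to maintain DNA methylation at replication. Uhrf1 went from 2.05 ± 1.08 CPM to 48.6 ± 2.38 with WT and 14.1 ± 2.22 with IL13KO ILC2s, and Dnmt1 from 3.20 ± 2.09 to 41.1 ± 1.64 and 23.9 ± 0.627 CPM. Ehmt1 and Ehmt2, which encode histone H3 lysine methyltransferases, were higher with IL13KO ILC2s (1.12 ± 0.13 and 1.14 ± 0.17), and Ehmt1 with WT (1.01 ± 0.13), whereas Lrif1, which encodes a partner of SMCHD1, was lower with WT (-0.86 ± 0.14). Uhrf1 was the 1 gene of the list called between the cocultures (1.78 ± 0.26), where 11.7% of all genes were called higher and 11.7% lower.

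Of 24 tested genes for cytoplasmic partners, proteases and signalling, 13 were called higher and 5 lower with WT ILC2s, against 11 and 7 with IL13KO ILC2s (medians 0.42 and 0.26). Aph1a, which encodes a subunit of the gamma-secretase that cleaves protocadherins in the membrane, rose from 18.6 ± 6.09 CPM to 95.7 ± 17.5 with WT and 100.1 ± 4.57 with IL13KO ILC2s. Ncstn, of the same complex, was higher with IL13KO ILC2s (0.73 ± 0.11). Wasf1, an actin regulator of the WAVE complex that alpha tails can bind, rose with WT ILC2s (2.60 ± 0.28). Ptk2, which encodes the focal adhesion kinase that gamma and alpha tails inhibit, rose with WT ILC2s (0.80 ± 0.10), as did Rac1 (0.60 ± 0.08). Ret, a receptor kinase gene, was higher with IL13KO ILC2s (4.34 ± 0.61) from a level of 0.0916 ± 0.140 CPM, and Pdcd10, which encodes a partner of the gamma tail, was lower (-0.67 ± 0.10). Rac1, Fyn and Ptk2 were higher with WT than with IL13KO ILC2s (0.63 ± 0.08, 0.68 ± 0.14 and 0.36 ± 0.11). These counts stand beside 32.8% of all genes called higher and 29.7% lower with WT, and 30.1% and 27.2% with IL13KO ILC2s.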

How the data were processed

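The deposited table holds read counts per gene as whole numbers, and the authors' processing is known only in outline. Per the submitters' processing notes it involved STAR 2.7.7a, Salmon 1.6.0, Picard, DESeq2, Trimmomatic 0.39, FastQC 0.11.9 and GRCm38.p6, while the counting tool, its annotation, its strand setting and its treatment of shared exons are not given in the sources used here. Per the labels, libraries were made from 5 to 15 ng of RNA and read as pairs of 50 bases. Exon sharing was computed from the GENCODE M21 annotation of GRCm38, in which 22639 of 22731 identifiers were found.

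Counts were fitted with edgeR 4.0.16 (R 4.3.3): filterByExpr, TMM scaling, quasi-likelihood fit with robust dispersion over all 10 libraries and 1 coefficient per group, and Benjamini-Hochberg adjustment over the 16344 genes kept, called below 0.05. CPM use the TMM-scaled library sizes, and a group's fold change ± SE comes from the fit. The fit was tested on simulated data first. Alternatives were DESeq2 1.42.0, limma-voom (limma 3.58.1), upper-quartile scaling, other filters, a test against a fold change of 1.5, a GC and length trend removed per library (loess, span 0.4), fits of 2 groups, a replicate block and each library left out.

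The members and the other gene lists were chosen with earlier results of these data known. Members named with all values are Pcdhgb6, Pcdhgc5, the C-type genes and every member called in a comparison whose mean reached 1 CPM in 1 group or more. From each other list up to 4 called genes with the smallest adjusted p per comparison are named, and of the neighbours every called gene. No pair of libraries within a group agreed within counting noise.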

Additional observations from a re-analysis of the deposited data

Results flagged for a closer look

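In each group of 4 libraries, which here means the monocultures, the gap between the highest or lowest library and its nearest neighbour was divided by the whole range and set against Dixon's critical value for 4 samples. Among 37 quantities examined, 3 exceeded it, and chance alone does this in about 1 in 20 groups. Monoculture 1 stood apart for Pcdhb19, a beta gene, with 29.7 CPM against 23.2 to 24.1 in the others (ratio 0.86). It also stood apart for Pcdhgb5, with 1.01 against 0 to 0.0741 CPM (0.927). Monoculture 2 stood apart for Pcdhgb7, with 0.667 against 0 to 0.0845 CPM (0.873). For the gamma genes these are differences of at most 12 reads.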

How the results depend on the processing

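No called result turned its direction under any alternative run. With WT ILC2s, gamma genes called higher numbered 14 to 18 with single libraries left out (18 with all) and 13 after removal of the GC and length trend; with IL13KO ILC2s they numbered 15 to 19 (19 with all), and 14 with the trend removed. Beta genes called lower with WT ILC2s (11) numbered 9 to 12 with single libraries left out and 7 against a fold change of 1.5. The 1 beta gene called higher there was 0 under upper-quartile scaling and against a fold change of 1.5, and 0 to 1 with single libraries left out. With IL13KO ILC2s, beta genes called lower (2) were 4 under upper-quartile scaling, 0 against a fold change of 1.5, 1 with the trend removed, 4 without monoculture 3, and 0 without IL13KO coculture 2 or 3. Those called higher (1) were 2 under limma-voom, with no filter, with the trend removed, or without monoculture 1, 2 or 3 (range 1 to 2). Alpha genes called (0) were 1 lower with WT ILC2s under DESeq2 or no filter (0 to 1 with single libraries left out) and 1 higher with IL13KO ILC2s with no filter (0 to 1). Between the cocultures, beta genes called lower (8) were 17 in a fit of only these groups (where 18.3% of all genes were called lower), 4 against a fold change of 1.5, and 7 to 10 with single libraries left out. Gamma genes called lower there (1) were 2 under limma-voom and in the fit of 2 groups, 0 against a fold change of 1.5, and 0 to 2 with single libraries left out (0 without WT coculture 3 or 4 or IL13KO coculture 1 or 2, 2 without any 1 monoculture). The cause of these differences was not tested.

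The column numbers of the count table, which for the WT cocultures differ from those of the labels, gave no sign of pairing. Deviations of same-numbered libraries correlated by -0.13 to 0.03. With the numbers as a replicate block, gamma genes called higher were 16 with WT and 16 with IL13KO ILC2s, beta genes called lower with WT ILC2s 10 and higher 0, and gamma genes called lower between the cocultures 0. With block and trend removal together, gamma genes called higher were 12 and 11, beta genes called higher 0 with WT and 2 with IL13KO ILC2s and lower 8 and 1, and gamma genes called lower between the cocultures 0. Low counts limit the gamma genes in monoculture: 137 to 254 reads over 22 genes leave many at 0.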
